A study of Mus musculus with 6 samples.

Results

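The 10 genes described here encode the major histocompatibility complex (MHC) class II antigen presentation machinery of the mouse: H2-Aa, H2-Ab1, H2-Eb1, Cd74, H2-DMa, H2-DMb1, H2-DMb2, H2-Oa, H2-Ob and Ciita. They were picked by gene symbol out of 53647 features, and all 10 were present in the files. Single cell RNA sequencing (droplet capture, 3' counts) was used on proximal pulmonary arteries (PAs) dissected together with adjoining tissue, and 15409 cells from 6 libraries were analysed here. All groups were untreated, genetically unmodified C57BL/6J mice by the study's account. The young group held 2 libraries of 3 months, 1 of them labelled f, and the old group held libraries of 20, 24, 27 and 28 months, the last from a female and the others from males. The labels name no animals, so the p-values below measure the spread between libraries, and a single library stands for each old age.

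MHC class II molecules are pairs of an alpha and a beta chain that display peptides taken up from outside the cell to CD4+ T cells. Dendritic cells (DCs), macrophages (MΦs) and B cells are the professional antigen presenting cells that carry them. The invariant chain, product of Cd74, occupies the groove of new class II molecules until H2-DM (H2-DMa with H2-DMb1 or H2-DMb2) helps to exchange its remnant for antigenic peptide, H2-O (H2-Oa with H2-Ob) restrains H2-DM, and Ciita is the coactivator that switches the group on. In endothelial cells (ECs) class II expression is best known as a response to interferon gamma.

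Ciita acts through factors that bind 2 short elements shared by class II promoters, an X box and, downstream of it, a Y box read by the factor NF-Y. Promoter sequences from RefSeq (build GRCm38.p6, 250 bases before to 50 after each start) were at hand for 7 of the 10 members as 8 entries, all on chromosome 17, with no entry for H2-Ab1, Cd74 or Ciita. The Y box letters TGATTGG were found on the gene's own strand in 6 of these 8 promoters, against 4.01% of 32851 promoters on the gene strand and 7.82% on either strand. Both H2-DMa entries lacked those letters. The windows below run 5' to 3' on the gene's strand and are shown because they carry the element the members share, with TGATTGG and, where present, the X box letters AACNGATG in capitals.
H2-Aa: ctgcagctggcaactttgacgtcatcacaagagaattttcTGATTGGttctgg
H2-Eb1: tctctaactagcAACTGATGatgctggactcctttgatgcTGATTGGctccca
H2-DMb1: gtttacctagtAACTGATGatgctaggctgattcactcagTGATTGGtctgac
H2-DMb2: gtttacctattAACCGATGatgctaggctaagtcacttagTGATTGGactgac
H2-Oa: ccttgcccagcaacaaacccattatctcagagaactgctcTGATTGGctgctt
H2-Ob: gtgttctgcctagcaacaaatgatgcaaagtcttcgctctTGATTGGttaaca
The windows lie at chr17:34287861-34287913 (H2-Aa, minus strand), chr17:34305766-34305818 (H2-Eb1, plus), chr17:34153088-34153140 (H2-DMb1, plus), chr17:34145117-34145169 (H2-DMb2, plus), chr17:34092294-34092346 (H2-Oa, plus) and chr17:34238806-34238858 (H2-Ob, plus). AACNGATG stood in the H2-Eb1, H2-DMb1 and H2-DMb2 windows, 20 or 21 bases ahead of the Y box, and on either strand in 2.32% of all promoters. The ordered pair at a distance of 10 to 30 bases was found in 5 of 32851 promoters (0.0152%), and the other 2 belonged to the class II gene H2-Eb2 and to BC051142. The H2-DMb1 and H2-DMb2 windows were identical at 47 of 53 bases (88.7%). A match of letters is a description and not a shown binding site.

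Cell types were named from marker genes among which no member was counted, and the members were also kept out of the genes used for clustering. Each name thus means a cluster like that type. Macrophages numbered 1359 cells, B cells 2452, DCs 104, monocytes 146, plasma cells 99, ECs 2113, fibroblasts (FBs) 1788 and airway epithelial cells 1369. A library entered a type only with at least 10 cells, so that DCs were read in 4 libraries, B cells in 5 and monocytes in 2. DCs were type 1 and type 2 conventional DCs. Type 2 cells came only from 27 and 28 months (12 and 19 cells), so DC levels differ in subtype between libraries. Total unique molecular identifiers (UMIs, 1 for each captured molecule) per library ran from 6355125 to 50436562. The median per cell was 841 and 817 UMIs in the young libraries and 799 at 24 months. It was 2159, 8118.5 and 5429.5 at 20, 27 and 28 months, so depth differs along the age comparison except at 24 months. Both young libraries and the 24-month library shared between 130 and 213 cell barcodes pairwise, where chance gives at most 1.1, and the other pairs shared at most 4. With those barcodes left out no difference of levels below changed its call. Levels are CPM, a gene's UMIs scaled to a fixed total, summed over the cells of a type in a library, on which the 3' chemistry counts a transcript once whatever its length. Fewer transcripts per cell and fewer transcribing cells cannot be told apart in such a sum.

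Taken as whole types, DCs held the highest level of the peptide presenting chains and of the invariant chain. MΦs and B cells followed, with overlapping ranges and no order common to all these chains. For Cd74 single MΦ clusters reached the level of DCs, as given below. Cd74 stood at 12902 CPM in the DCs of young library 1, and at 10855, 18614 and 12466 CPM in those of 24, 27 and 28 months. In MΦs it ran from 3101 CPM at 24 months over a median of 5602 to 16364 CPM at 20 months. B cells were the most even, with 6186 and 5200 CPM in the young libraries and 5679, 6737 and 7443 CPM at 24, 27 and 28 months. DCs were above MΦs in 4 of 4 libraries and the 20-month MΦs, in a library with too few DCs, were the only MΦs within the range of the DCs. The mean difference was 1.38 ± 0.46 (SD, n = 4) on the log2 scale, with p = 0.125 in the exact sign-flip permutation test, the smallest p that 4 libraries allow. B cells exceeded MΦs by 0.39 ± 0.46 (SD, n = 5, exact permutation p = 0.188), in 4 of 5 libraries. A cluster of 311 myeloid cells, 171 of them in young library 1 and 124 at 24 months, was left unnamed between MΦs and DCs and enters neither. Counted as MΦs, a choice made after the values were seen, it raised MΦ Cd74 from 4038 to 7397 CPM in young library 1 and from 3101 to 6496 CPM at 24 months. DCs then still exceeded MΦs in 4 of 4 libraries, by 0.90, while B cells exceeded them in 2 of 5, with a mean difference of -0.06 (exact permutation p = 0.625).

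**Figure D1:**
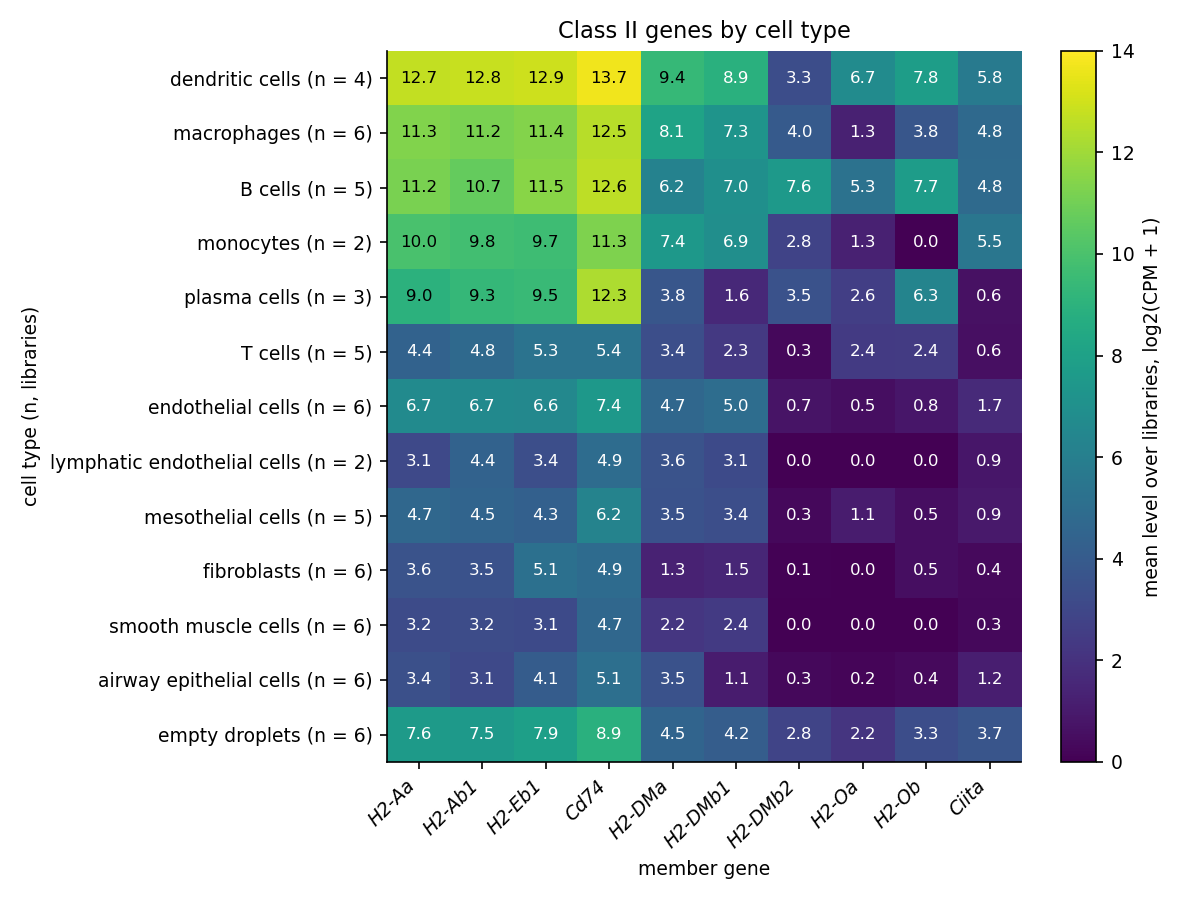
Mean level of each member gene (columns) in each marker-defined cell type and in empty droplets (rows, n = number of libraries), as log2(CPM + 1) by color. Cd74 and the H2-A and H2-E chains are bright in DCs, MΦs and B cells, whereas H2-DMb2, H2-Oa and H2-Ob are bright in B cells and dim in MΦs.

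The alpha and beta chains followed the same order. H2-Aa averaged 6813 ± 1306 CPM (SD, n = 4) in DCs, 2700 ± 1003 (n = 6) in MΦs, 2304 ± 195 (n = 5) in B cells and 1022 ± 266 (n = 2) in monocytes. H2-Ab1, the beta chain that pairs with it, averaged 7453 ± 1481, 2551 ± 1201, 1676 ± 305 and 873.7 ± 92.9 CPM in the same order. H2-Eb1, the beta chain of H2-E, averaged 8010 ± 2013, 3116 ± 2083, 3009 ± 740 and 835.7 ± 274 CPM. For H2-Aa and H2-Ab1 every DC library stood above every MΦ library. For H2-Eb1 the 20-month MΦs, with 7290 CPM, stood above the DCs of 28 months, with 5499 CPM. The partner of H2-Eb1 was nearly missing: H2-Ea, which C57BL/6 mice are known not to transcribe because of a deletion at its start, gave 1 UMI in all cells. H2-Eb2, a further beta chain gene, gave 223 UMIs, of which 77.1% were in B cells and 7.17% in plasma cells. These shares follow the size of the types, 2452 B cells and 99 plasma cells, and do not compare levels.

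**Figure D2:**
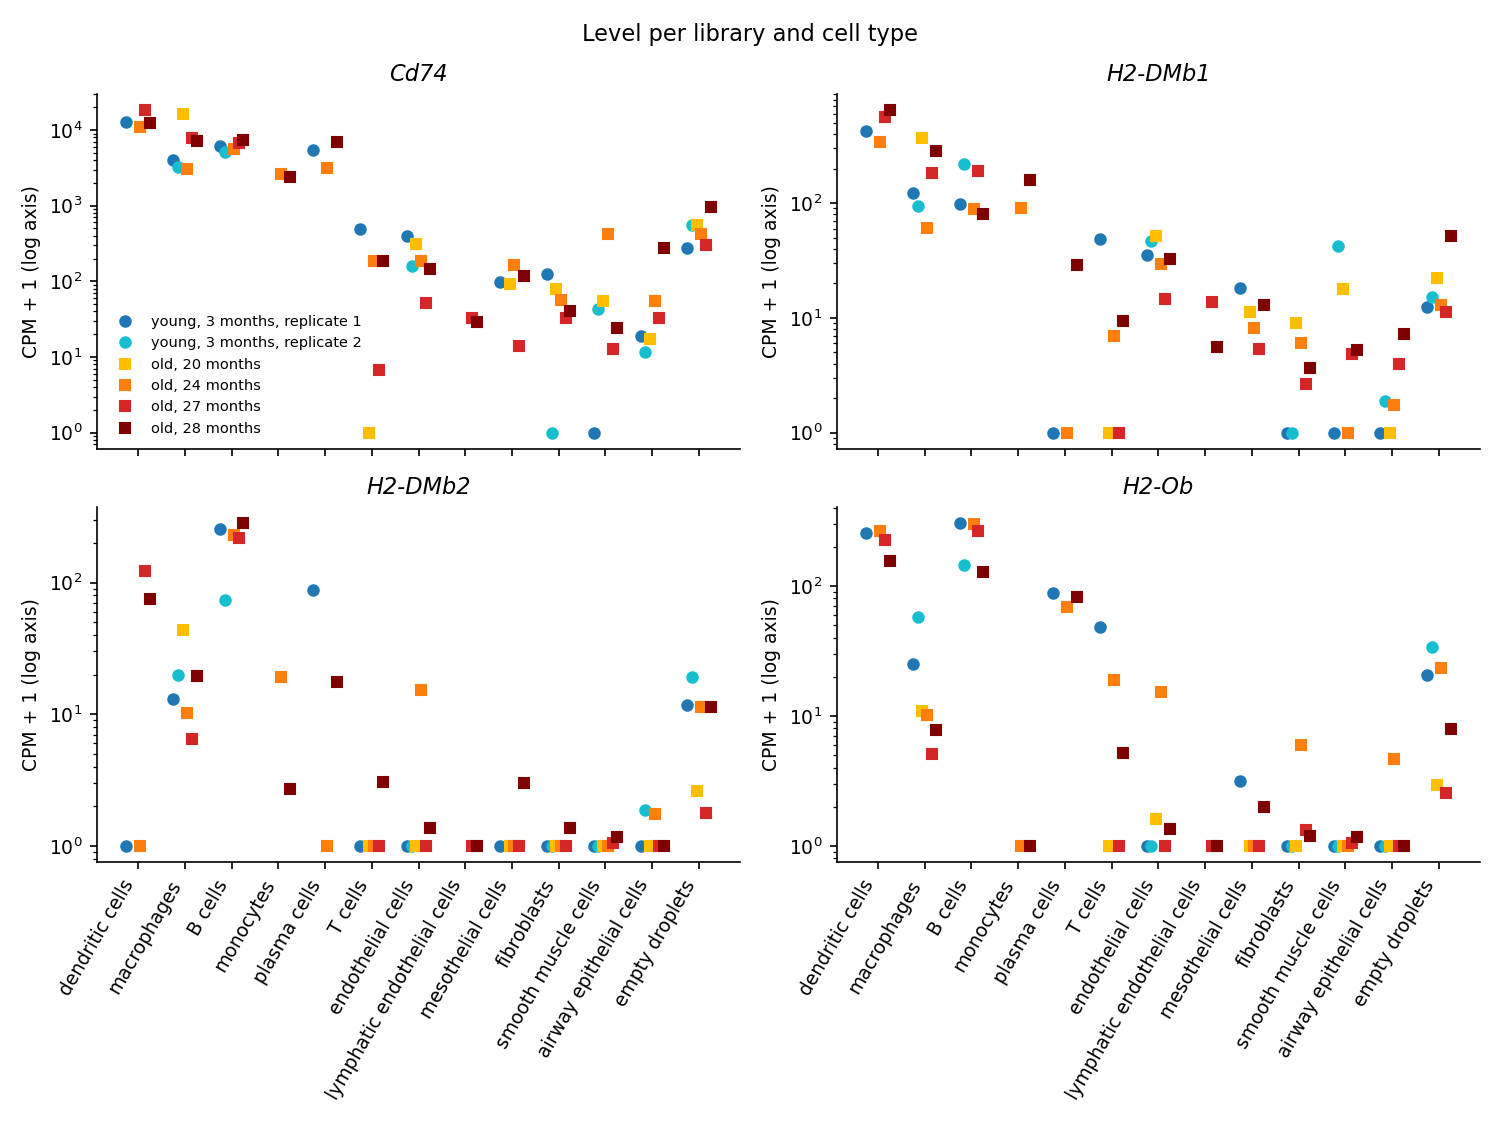
Levels of Cd74, H2-DMb1, H2-DMb2 and H2-Ob in single libraries (points, young and old by symbol) in each cell type, as CPM + 1 on a log axis. The 20-month MΦs stand above the other MΦs for Cd74, and B cells lie above MΦs for H2-DMb2 and H2-Ob in each of the 5 libraries with B cells. The B cells of young library 2 numbered 22.

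In the order of levels from type to type, 117 neighbouring pairs were compared within libraries over all 10 members, and none differed with p under 0.05 in the exact permutation test (smallest adjusted p = 1.0). Of these pairs 16 had all 6 libraries, without which a p under 0.05 cannot be reached. The tests of single differences reported in the text, 8 planned and 6 chosen after the levels were seen, form a family of 14, and no adjusted p fell below 0.0875.

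H2-DMa and H2-DMb1, the chains of the peptide exchange factor, stood at a lower level and were also highest in DCs. H2-DMa stood at 637, 606, 668 and 778 CPM in the DCs of young library 1 and of 24, 27 and 28 months, and between 174 and 444 CPM in MΦs (median 284). In B cells it ran from 0 in young library 2 over a median of 187 to 288 CPM, and monocytes held 126 and 236 CPM, so that these 2 types overlapped. H2-DMb1 stood at 424, 343, 564 and 652 CPM in the same DCs, between 59.5 and 366 CPM in MΦs, and between 78.7 and 217 CPM in B cells. The H2-DMa ranges of DCs and MΦs did not overlap, and for H2-DMb1 the 20-month MΦs reached into the DC range.

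H2-DMb2, the other beta chain of H2-DM, differed from H2-DMb1 in where it was found. B cells held 254 and 72.2 CPM in the young libraries and 228, 219 and 283 CPM at 24, 27 and 28 months. MΦs held between 5.51 and 42.5 CPM (median 15.4), and DCs 0, 0, 121 and 73.5 CPM. Every B cell library was above every MΦ library, while for H2-DMb1 these ranges overlapped. The lowest B cell value, that of young library 2, came from 22 cells with 13845 UMIs of all genes together. The difference between B cells and MΦs was 3.92 ± 1.22 (SD, n = 5) on the log2 scale (5 of 5 libraries, exact permutation p = 0.0625, the smallest possible), and this comparison was chosen after the levels were seen. Per UMI of H2-DMb1, B cells held a median of 2.60 UMIs of H2-DMb2 (range 1.15 to 3.59, 4 libraries) and MΦs 0.108 (0.0302 to 0.200, 6 libraries). The beta chain genes are paralogs whose transcripts were not compared here, and reads that fit both could be split or dropped in the authors' counting, so the ratio holds for reads assigned to 1 gene. Among DCs, H2-DMb2 was found mostly in type 2 conventional DCs, with 191 and 113 CPM at 27 and 28 months, beside 53.6 and 31.6 CPM in type 1 DCs of the same libraries. The DCs at 0, of young library 1 and 24 months, were all type 1. Counting the unnamed myeloid cluster as DCs, a choice made after the values were seen, brought H2-DMb2 there to 94.5 and 80.5 CPM.

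H2-Oa and H2-Ob, the chains of the H2-DM inhibitor, were found in B cells and DCs and were low in MΦs. H2-Ob stood at 304, 144, 299, 261 and 127 CPM in the B cells of young library 1, young library 2, 24, 27 and 28 months, at 153 to 263 CPM in DCs and at 4.13 to 56.4 CPM in MΦs. Neither B cells nor DCs overlapped MΦs. The 144 CPM of young library 2 rested on 2 UMIs in 22 B cells. B cells exceeded MΦs by 3.91 ± 1.64 (SD, n = 5) on the log2 scale, in 5 of 5 libraries (exact permutation p = 0.0625, the smallest possible). H2-Oa was lower throughout, with 96.2, 0, 77.3, 106 and 103 CPM in the same B cell libraries, 67.4 to 208 CPM in DCs and 0 to 13.7 CPM in MΦs. The 0 came from the 22 B cells of young library 2. B cells exceeded MΦs in 4 of 5 libraries by 4.41 ± 3.05 (SD, exact permutation p = 0.125), again chosen after the levels were seen. In monocytes no UMI of H2-Ob was counted in either library.

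Ciita, the coactivator of the group, was sparse. DCs held 0, 52.7, 274 and 585 CPM in young library 1 and at 24, 27 and 28 months, MΦs held 0 to 135 CPM (median 47.2), and B cells 36.1, 0, 47.7, 98.9 and 99.3 CPM. DCs exceeded MΦs in 3 of 4 libraries, but the mean difference of 0.20 ± 3.09 (SD, n = 4) was far smaller than the spread (exact permutation p = 1.0). Its sign rested on single libraries, since it was -0.13, -0.44 and -0.38 without the 24-, 28- and 27-month libraries in turn. The DCs at 0 were 18 cells with 23562 UMIs in all. They were type 1 DCs, as were those of 24 months, whereas DCs of 27 and 28 months were in part type 2.

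Plasma cells, the antibody secreting descendants of B cells, held more Cd74 per beta chain than the antigen presenting cells. Their Cd74 was 5442, 3127 and 6881 CPM in young library 1 and at 24 and 28 months, of which the first and last lie within the range of B cells. H2-Ab1 was 1296, 336 and 629.6 CPM in the same cells. Cd74 per H2-Ab1 was therefore 9.30 in the median (4.2 to 10.9, 3 libraries), beside 4.01 in B cells (2.96 to 4.77), 2.46 in MΦs (1.62 to 3.43) and 1.87 in DCs (1.39 to 2.31). The ranges of B cells and plasma cells overlapped, and those of B cells and DCs did not overlap. Ciita gave 0, 0 and 2.77 CPM in plasma cells.

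MΦ clusters differed widely in class II transcripts, and libraries differed in which clusters they held. One cluster led by Saa3, Prg4 and Alox15 was almost without them. Its Cd74 was 0, 126 and 616 CPM in young library 1, young library 2 and at 24 months, against 276, 560 and 422 CPM in the empty droplets (1 to 100 UMIs, free RNA) of the same libraries. A second cluster, led by Retnla and C1qa, held 8905, 14018 and 8208 CPM there, and 10865 and 11342 CPM at 27 and 28 months. The first was thus below the second in 3 of 3 libraries that held both (smallest possible exact permutation p = 0.25). After each cell was thinned to 500 UMIs, a Cd74 UMI was seen in 0 of 14, 8.33% and 16.3% of the cells of the first cluster (exact 95% intervals 0 to 23.2%, 1.75 to 22.5% and 9.42 to 25.5%). For the second cluster these shares were 66.7%, 100% and 81.5%, and no interval of the first reached one of the second in the same library (34.9 to 90.1%, 71.5 to 100% and 61.9 to 93.7%). All intervals here cover counting error only. The clusters were built from the same cells, so that this is a description.

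Lyve1-type MΦs, which line vessels and are named after a hyaluronan receptor, held less than the other MΦs of their libraries. Their Cd74 was 6474 CPM at 27 months and 5655 CPM at 28 months, beside 15069 and 11970 CPM in the other MΦs. The 28-month value pools a cluster of 217 cells at 3522 CPM with 1 of 165 cells at 9443 CPM. The latter had only 3 of 7 Lyve1-type markers raised among myeloid cells. H2-DMb1 ran in the same direction, with 119 and 164 CPM against 499 and 657 CPM. With 2 libraries the difference has no test that could pass. Of the 125 MΦs of 20 months, 113 formed a cluster of their own, with 16016 CPM of Cd74. At 28 months MΦ clusters m9 and m12 held 11379 and 14631 CPM, beside 12767 and 12147 CPM in DC clusters m13 and m14. Monocytes, the circulating precursors, held 2637 and 2417 CPM at 24 and 28 months.

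**Figure D3:**
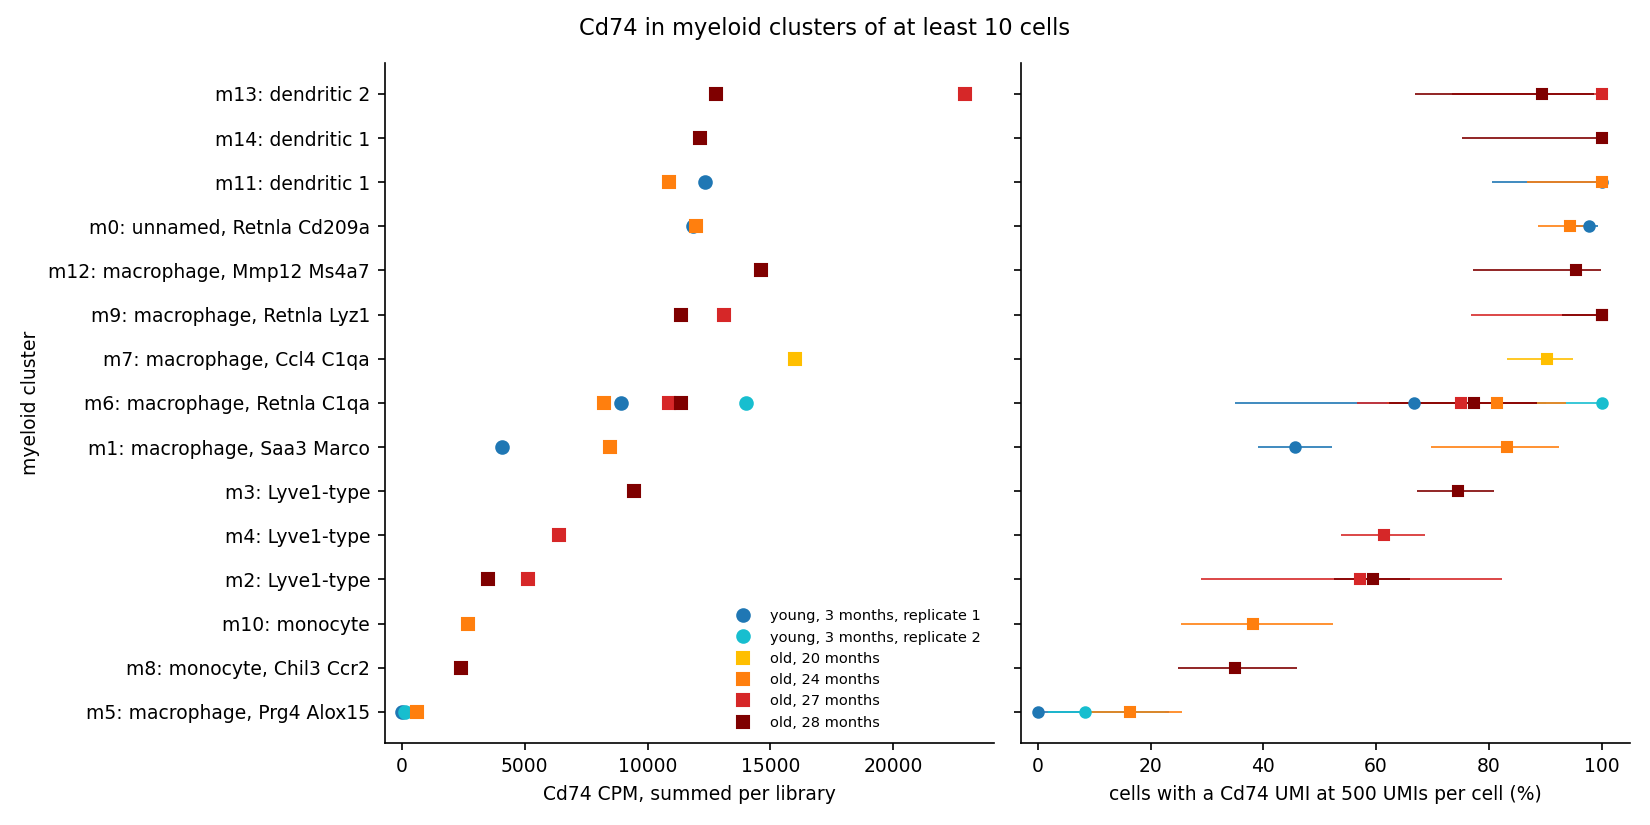
Cd74 in clusters of myeloid cells, as CPM (left) and as the share of cells with a Cd74 UMI after thinning to 500 UMIs with exact 95% intervals (right), each point being 1 library with at least 10 cells of the cluster. Cluster m5 (Saa3, Prg4, Alox15) lies near 0 and below m6 (Retnla, C1qa) in the 3 libraries that held both, while DC clusters m11, m13 and m14 lie at 10855 CPM or more. MΦ clusters m7, m9 and m12 lie in the same range, at 11379 to 16016 CPM.

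Outside the immune cells, Cd74, H2-Aa and H2-DMb1 were counted at a low level in ECs, above that in FBs of the same libraries. Cd74 in ECs ran from 50.5 CPM at 27 months over a median of 173 to 395 CPM in young library 1, beside 0 to 125 CPM in FBs (median 47.2). H2-Aa ranged from 42.4 to 309 CPM in ECs and from 0 to 40.3 CPM in FBs, and H2-DMb1 from 13.5 to 50.3 CPM in ECs and from 0 to 8.06 CPM in FBs. The ranges did not overlap for H2-Aa and H2-DMb1. ECs were above FBs in 6 of 6 libraries for Cd74 (2.54 ± 2.39 on the log2 scale, SD), H2-Aa (3.09 ± 2.15) and H2-DMb1 (3.52 ± 1.45), each with an exact permutation p = 0.0312, the smallest that 6 libraries allow, and an adjusted p = 0.0875. These 3 comparisons were chosen after the levels were seen. They used levels as counted, without taking off free RNA. Its estimated share was 66.3% in ECs and 3.86% in FBs of young library 2, and 52.8% and 13.4% at 24 months. In both libraries EC Cd74 and H2-Aa lay under the level estimated from free RNA alone, while EC H2-DMb1 lay over it. At 27 months EC Cd74 was close to that estimate (50.5 against 46.1 CPM), and in the remaining libraries it lay over it. The Cd74 difference was 1.58 without young library 2, whose 29 FBs held no Cd74 UMI. For H2-DMb1 the largest differences, 5.14 and 5.54, came from the young libraries, with 2 UMIs each in ECs and 0 in FBs. H2-DMb1 at 24 months rested on 4 UMIs in ECs and 1 in FBs. For H2-Aa the young libraries held 18 and 5 UMIs in ECs and 1 and 0 in FBs. With cells of at least 1000 UMIs and 500 genes, 4 libraries remained and the differences were 1.58, 0.15 and 1.14.

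Free RNA carried class II transcripts as well, and sets the scale for these values. Cd74 in empty droplets ran from 276 to 948 CPM. FBs were below it in 6 of 6 libraries, with a difference of -3.96 ± 2.76 (SD) on the log2 scale, and so were airway epithelial cells, with -3.74 ± 1.41, each with an exact permutation p = 0.0312 (0.125 adjusted over the 8 planned differences). ECs were below it in 5 of 6 libraries, with -1.42 ± 1.19 for Cd74 (exact permutation p = 0.0625) and -0.94 ± 1.20 for H2-Aa (exact permutation p = 0.0938). Of the 3 members set against empty droplets, only H2-DMb1 was higher in ECs, in 5 of 6 libraries, by 0.87 ± 0.88 (SD, exact permutation p = 0.0938, chosen after the levels were seen), and the difference was -0.70 in the 4 libraries left with cells of at least 1000 UMIs. Droplets of over 100 and up to 300 UMIs were an alternative set. Against these, H2-DMb1 in ECs was lower in young library 2 (45.6 against 49.9 CPM) and at 20 months (50.3 against 54.2 CPM). In the remaining libraries it was higher. At 28 months the empty droplets held 1154462 UMIs in 825807 barcodes. Their Cd74 was 948 CPM there, beside 380 CPM in the alternative set. Per UMI of Cd74, ECs held 0.188 UMIs of H2-DMb1 in the median (0.0870 to 0.286), empty droplets 0.0360 (0.0252 to 0.0539) and MΦs 0.0258 (0.0192 to 0.0394), and the EC range overlapped neither. Both ends of the EC range rest on 2 H2-DMb1 UMIs each, beside 23 and 7 Cd74 UMIs in the young libraries. The ratio was not particular to ECs, since its median was 0.308 (0.181 to 0.330, 3 libraries) in smooth muscle cells (SMCs), 0.283 (0.167 to 0.4, 2 libraries) in lymphatic ECs and 0.111 (0.0435 to 0.333, 5 libraries) in mesothelial cells, all overlapping ECs, and 0.0673 (0 to 0.103, 5 libraries) in FBs.

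**Figure D4:**
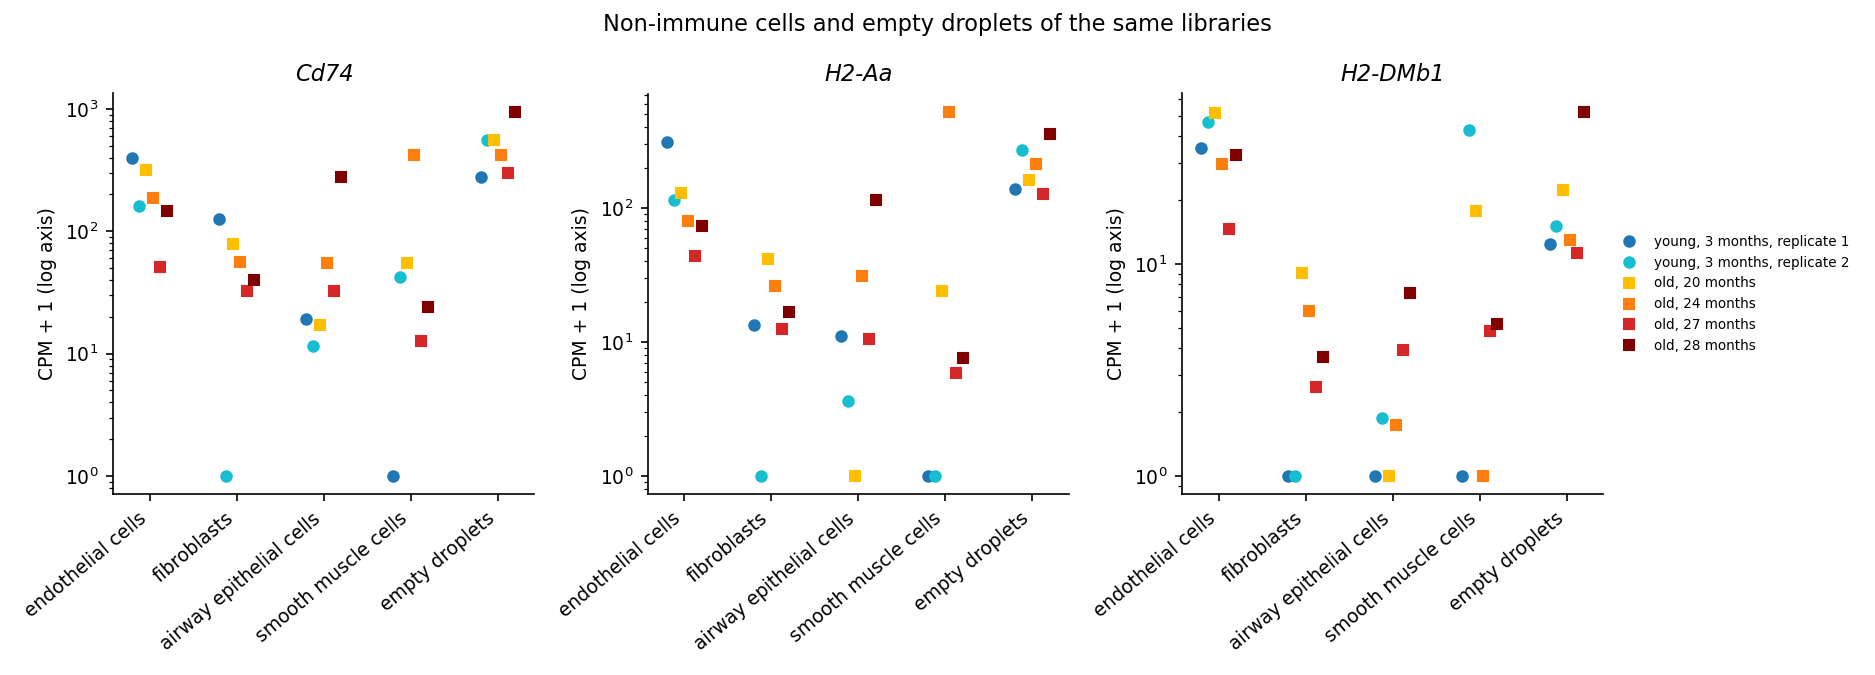
Level of Cd74, H2-Aa and H2-DMb1 in single libraries (points) of non-immune cell types and empty droplets, as CPM + 1 on a log axis. ECs stand above FBs of the same library in each of the 6 libraries, and empty droplets above ECs for Cd74 in 5 of 6.

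The estimated share of free RNA among EC UMIs was 15.8% and 66.3% in the young libraries and 9.34%, 52.8%, 15.5% and 6.26% at 20, 24, 27 and 28 months. At these shares free RNA alone would give 43.6, 372, 52.5, 223, 46.1 and 59.4 CPM of Cd74 in the same order. The observed EC levels were 395, 160, 314, 186, 50.5 and 146 CPM, so that they lay over that estimate in young library 1 and at 20 and 28 months, close to it at 27 months and under it in the others. For FBs the shares were 19.7%, 3.86%, 1.67%, 13.4%, 15.7% and 3.55%, and free RNA alone would give 54.5, 21.6, 9.36, 56.7, 46.5 and 33.7 CPM. The observed FB levels were 125, 0, 77.9, 55.0, 31.4 and 39.3 CPM, so that FBs too lay over the estimate in young library 1 and at 20 and 28 months. Mesothelial cells lay over it in the same libraries, with 97.0, 92.1 and 118 CPM against 46.1, 5.38 and 28.3 CPM. Lying over this estimate therefore did not set ECs apart. After thinning to 500 UMIs, a Cd74 UMI was seen in 12.9%, 4.84%, 10.9%, 7.04%, 2.01% and 6.38% of ECs, against 1.10%, 0 of 29 cells (exact 95% interval up to 11.9%), 2.36%, 1.87%, 0.196% and 2.20% of FBs. Without thinning these shares ran from 7.54% to 27.2% in ECs and from 0 to 10.5% in FBs, at median depths of 618 to 2882.5 UMIs per EC. In young library 1 and at 20 and 28 months the exact 95% intervals of ECs (6.64 to 22%, 8.65 to 13.5% and 4.78 to 8.30%) lay above those of FBs (0.0278 to 5.97%, 0.490 to 6.75% and 1.31 to 3.46%), and in the other 3 libraries they overlapped.

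Cells that also held a UMI of any of 13 leukocyte genes, such as Ptprc, C1qa and Cd79a, were then left out, a step added after the values were seen. EC Cd74 was 409, 160, 317, 83.4, 47.9 and 129 CPM without them, and FB Cd74 was 0, 0, 79.4, 10.4, 8.08 and 17.3 CPM. The EC level thus moved by more than 1.5 times only at 24 months. The step left out 3.53% and 0% of ECs in the young libraries. At 20, 24, 27 and 28 months it left out 4.33%, 5.03%, 6.38% and 31.9%. In young library 2 the EC level therefore could not move, and where few cells were left out a steady level shows little. In the airway epithelium 87 of the 88 Cd74 UMIs at 28 months were in 5 of 21 cells, 53 of them in 1 cell. The Cd74 of ECs was spread further, with 518 UMIs in 182 of 669 cells at 20 months and 407 UMIs in 189 of 800 cells at 28 months. ECs of a cluster led by Gpihbp1 held 0 and 57.3 CPM at 27 and 28 months, beside 66.1 and 189 CPM in a cluster led by Ldb2. H2-DMb2, H2-Oa and H2-Ob reached at most 14.3 CPM in any EC library and Ciita at most 7.17 CPM, which is below its 2.61 to 28.3 CPM in empty droplets in 5 of 6 libraries.

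The study's design compares old with young arteries. This was possible in MΦs, ECs, FBs and airway epithelial cells (2 young and 4 old libraries) and in B cells (2 and 3), but not in DCs, monocytes and T cells, which had at most 1 young library with 10 cells. SMCs were left out because clusters of that name were led partly by genes of pericytes and cardiomyocytes. Their test had been planned, and they reached 10 cells in each library, with 23 and 35 cells in the young ones. Of 6 SMC markers, 5 or 6 were raised in each of these clusters. The omission is thus a choice, and SMCs were not tested. No member passed an adjusted p of 0.05 in any of the 5 types (edgeR quasi-likelihood test).

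In MΦs all 7 members that passed the filter on low counts were higher in the old libraries, none past the test. The median log2 fold change of these was 0.50, against 0.09 over all genes tested, of which 54.6% were higher. The members are controlled together, so their directions are not independent counts. Cd74 was 4038 and 3292 CPM in the young MΦs and 16364, 3101, 7910 and 7165 CPM at 20, 24, 27 and 28 months, so that 3 old libraries were above both young ones and 1 was below. Its log2 fold change was 1.19 ± 0.79 (SE, edgeR adjusted p = 0.796). Ciita had the largest value, 2.33 ± 0.86 (SE, unadjusted p = 0.0224, edgeR adjusted p = 0.750), from 20.2 and 0 CPM in the young and 81.7, 22.9, 71.6 and 135 CPM in the old libraries. The young values overlapped no old one, but rested on 5 UMIs, and 20.2 CPM was close to the 22.9 CPM of 24 months. Ciita passed the filter only through the libraries of 20, 27 and 28 months, so it adds no support to the count of 7. In the same fit 0% of 5799 genes were called, 6.19% had an unadjusted p under 0.05, and DESeq2 called 4 genes (0.069%), none a member. Of the members only Ciita, 1 of 7, had an unadjusted p under 0.05.

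These fold changes moved with the make-up of the libraries. MΦs of different libraries sat in different clusters, and the Saa3, Prg4 and Alox15 cluster made up 5.3% and 65.5% of the MΦs in the young libraries and 53.5% at 24 months but 0% in the others. Without that cluster Cd74 was 4272 and 12648 CPM in the young and 16365, 8284, 7910 and 7165 CPM in the old MΦs, and the groups overlapped further. The 12648 CPM, on which this overlap rests, came from the 19 of 55 MΦs left in young library 2. With a term for the 3 libraries that shared barcodes, the fold change of Cd74 was -0.08 and that of H2-Aa -0.15, and only 1 of 7 members was higher. Both young libraries are among those 3, so these fold changes set the 24-month library alone against them. They say nothing about the other old libraries. With the unnamed myeloid cluster counted as MΦs, 4 of 7 members were higher and 3 lower, with a median of 0.06 and none past the test, and Cd74 was at 0.65 ± 0.72 (SE, edgeR adjusted p = 0.845). The part of the clusters in the difference was not tested.

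In B cells 9 members passed the filter, 6 higher and 3 lower in old libraries, with Cd74 at 0.28 ± 0.42 (SE, edgeR adjusted p = 0.887) and H2-Eb1, which had the largest size, at -0.43 ± 0.44 (edgeR adjusted p = 0.866). Over all genes tested in B cells 55.2% were higher. Here 0% of 2891 genes were called, 6.12% had an unadjusted p under 0.05, no member among them, and DESeq2 called 0. Without young library 2, whose B cells numbered 22, 1 member was higher and 8 were lower. The H2-Aa levels of B cells lay between 2049 and 2582 CPM in all 5 libraries, young and old. B cells of different libraries sat in different clusters. At 27 and 28 months 31 of 31 and 216 of 227 were in a cluster that held no young cells. In ECs all 5 members that passed were lower in the old libraries, with a median of -1.41 against 0.12 over all genes, of which 57.3% were higher. A cluster led by Pthlh and Cyyr1 held 76 of 85 and 57 of 62 young ECs and 173 of 199 ECs at 24 months. It held only 25 of 669, 40 of 298 and 89 of 800 ECs at 20, 27 and 28 months. The part of the clusters in the B cell and EC differences was not tested. The young counts were small, with 18 and 5 UMIs of H2-Aa and 23 and 7 of Cd74 in 85 and 62 cells. H2-DMa passed the filter only with young library 1 counted, where it was highest, at 5 UMIs. H2-DMb1 did not pass. H2-Aa did not pass the test at -1.41 ± 0.60 (SE, unadjusted p = 0.0353, edgeR adjusted p = 0.863), with 309 and 114 CPM in young ECs and 127, 78.6, 42.4 and 71.7 CPM in old ones. The 20-month value lay above that of young library 2, and the free RNA share differed between these libraries as given above. Without young library 1 the value of Cd74 in ECs turned from -0.66 to 0.20, and 1 of 4 members tested was higher. In ECs 0% of 5878 genes were called and 5.63% had an unadjusted p under 0.05, and DESeq2 called 1 gene (0.017%), none a member.

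**Figure D5:**
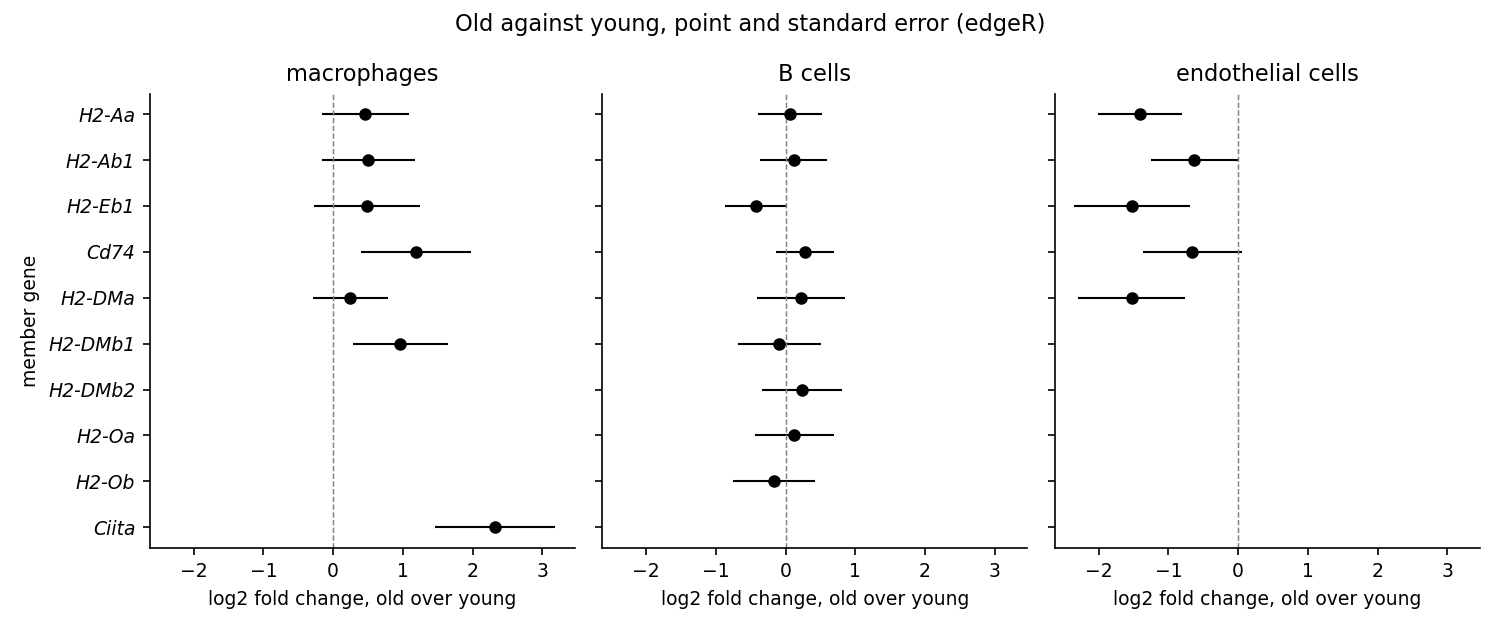
Log2 fold change of each member between old and young libraries in MΦs, B cells and ECs, as points with standard errors (edgeR). All 7 points lie above 0 in MΦs and all 5 below 0 in ECs, with none past the test, and members without a point did not pass the filter on low counts. Ciita passed that filter in MΦs only through old libraries, and H2-DMa in ECs only with young library 1 counted.

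No member passed the filter in FBs, where 0.0448% of 6696 genes were called, 6.33% had an unadjusted p under 0.05 and DESeq2 called 2 (0.0299%). In airway epithelial cells only H2-DMa passed, at -0.09 ± 0.53 (SE, edgeR adjusted p = 0.987), with 0% of 8264 genes called, 6.14% with an unadjusted p under 0.05 and 2 called by DESeq2 (0.0242%). The sums limit what could be seen. In counts simulated from the means and spread of these sums, 4-fold changes were recovered for 0% of changed genes in MΦs, 13.5% in B cells and 7% in ECs, and 16-fold changes for 92%, 99.5% and 93%.

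Of 28 genes that act around class II presentation (factors of the class II promoter, the proteases Ctss and Lgmn, costimulatory and interferon signaling genes), 22 were tested in MΦs, 14 in B cells, 12 in ECs, 13 in FBs and 14 in airway epithelial cells, and 0 passed. An unadjusted p under 0.05 was reached by Nlrc5, the coactivator of class I genes (2.28 ± 0.75, SE), and Nfya, a subunit of NF-Y (1.87 ± 0.72), in MΦs, by Cd83, which stabilizes surface class II (2.43 ± 1.04), in B cells, by the protease gene Lgmn (-1.16 ± 0.44) in ECs and by Rfxank, of the X box complex (1.97 ± 0.76), in airway epithelial cells. All had an edgeR adjusted p of 0.750 or more and were named after their values were seen. They were 2 of 22 genes tested in MΦs, 1 of 14 in B cells, 1 of 12 in ECs, 0 of 13 in FBs and 1 of 14 in airway epithelial cells. Over all genes tested, 6.19%, 6.12%, 5.63%, 6.33% and 6.14% had an unadjusted p under 0.05 in these types.

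Over 55 profiles of 1 type in 1 library, the mean of H2-Aa, H2-Ab1, H2-Eb1 and Cd74 was set against 8485 genes. The genes with the most similar pattern outside the members were Ly86 (Pearson r = 0.863), Pld4 (0.857), Wdfy4 (0.851), Fcgr2b (0.843), Cd86 (0.830), Ryr1 (0.830), Ctss (0.830) and Btk (0.826). Profiles of a library share its depth and free RNA, and types are few, so these are descriptions. Among the members outside the reference, H2-DMb1 had r = 0.807, H2-Ob and H2-DMa 0.783, Ciita 0.704, H2-DMb2 0.702 and H2-Oa 0.628. Wdfy4 stood at 1265 CPM in DCs, 494 in B cells and 91.9 in MΦs on average, whereas Fcgr2b, an inhibitory Fc receptor, was highest in MΦs with 357.5 CPM. Wdfy4 was among the markers used to name type 1 DCs, so its high level in DCs is no independent result.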

How the data were processed

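The members and gene lists were chosen with earlier results of these data known. Main pulmonary arteries were digested with collagenase and elastase and captured with a 10x Genomics 3' v3.1 kit. Per the submitters' processing notes, reads were trimmed with cutadapt and aligned and counted with STARsolo on GRCm38.p6, with versions not given in the sources used here. The values the authors deposited are UMI counts, raw and not normalized, for every barcode of each library. A further young library mentioned by the study is not analysed here.

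Cells were barcodes with at least 500 UMIs, 300 genes and at most 20% mitochondrial UMIs. Likely doublets (6 to 66 per library) were removed, by the caller's own threshold or, where this marked too few, as the top share. Cells were clustered in scanpy 1.11.5 with leidenalg 0.10.2 (2000 variable genes without the members, 40 components, 15 neighbours, resolution 1.0), and myeloid cells again on their own. A cluster took a name where more than 40% of a type's markers were raised, unless a type close behind had more markers among the cluster's 10 leading genes. CPM were computed from counts summed per library and type (at least 10 cells), and the log2 scale is log2(CPM + 1), which understates changes of low genes.

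Age groups were tested with edgeR 4.0.16 (TMM, robust quasi-likelihood test, Benjamini-Hochberg adjustment over all genes tested, adjusted p under 0.05) among genes detected, in no fewer than 3 libraries, in over 5% of the type's cells, with DESeq2 1.42.0 beside it. Counts were summed per library, in place of the study's mixed effects model over cells, so that libraries are the units compared. Single levels were compared within libraries with a two-sided exact sign-flip permutation test (smallest p 0.0312 for 6 libraries, 0.0625 for 5 and 0.125 for 4). Empty droplets were barcodes with 1 to 100 UMIs, and the free RNA share of a type was estimated from genes of other lineages. Ratios between members used at least 5 UMIs of the divisor. Named beside the members were H2-Ea, H2-Eb2, the 8 genes of most similar pattern (at least 50 CPM in 1 type mean, profiles of at least 20000 UMIs) and those of the 28 related genes past the unadjusted test. The fits were tested on simulated data. Other settings were stricter filters of at least 1000 UMIs and 500 genes or at most 10% mitochondrial UMIs, doublets kept, shared barcodes left out, cells thinned to 500 UMIs, members kept in clustering, a pseudocount of 10 CPM, edgeR's filterByExpr or no gene filter, no TMM, free RNA subtracted, a term for the barcode-sharing libraries and leaving out each library, and, added after seeing the data, the unnamed myeloid cluster counted as MΦs or as DCs. R was 4.3.3, Python 3.11.15, numpy 2.4.6 and scipy 1.17.1.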

Additional observations from a re-analysis of the deposited data

Results flagged for a closer look

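H2-Ab1 in FBs stood at 61.8 CPM in the 20-month library, beside 9.49 to 12.6 CPM in the other 3 old libraries. On the log2(CPM + 1) scale this was a gap of 0.853 of the group's range. It was flagged as a single library far from the others. Of 25 groups of 4 old libraries examined, 1 was flagged, and chance flags about 1 in 20.

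An unnamed cluster of myeloid cells led by Retnla and Cd209a, which was named neither MΦ nor DC and enters the comparisons of the report as an alternative alone, held class II transcripts at the level of DCs. Its Cd74 was 11831.5 CPM in 171 cells of young library 1 and 11951.4 CPM in 124 cells of the 24-month library, and its H2-Aa 6746 and 7313 CPM. H2-DMb2 stood at 106 and 103 CPM in these cells. After thinning, 97.7% and 94.4% of them held a Cd74 UMI. Against the cells outside the myeloid clusters 5 of 9 MΦ markers and 3 of 6 markers of type 2 DCs were raised in it, and its 10 leading genes held a DC marker, Cd209a, and no MΦ marker. The empty droplets of the same libraries held 276 and 422 CPM of Cd74.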

How the results depend on the processing

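No member passed the adjusted test between old and young in any type under any of the other settings or with any library left out. Old libraries could not be paired with young ones, because the labels link no old library to a young one. Among the fold changes, Cd74 (-0.083) and H2-Aa (-0.15) in MΦs turned sign with a term for the barcode-sharing libraries, Cd74 in B cells (-0.011, in a range up to 0.66 with 1 library left out) without young library 2 and Cd74 in ECs (0.20) without young library 1. The term for the barcode-sharing libraries leaves the 24-month library as the only old one set against the young. Ciita in DCs minus MΦs turned to -1.29 with thinned cells and ranged from -0.44 to 1.73 with 1 library left out (-0.13, -0.44 and -0.38 without the 24-, 28- and 27-month libraries), Cd74 in B cells minus MΦs turned to -0.058 with the unnamed myeloid cluster counted as MΦs, and H2-DMb1 in ECs minus empty droplets turned to -0.70 with cells of at least 1000 UMIs. With doublets kept, more libraries reached 10 cells, and Cd74 in DCs minus MΦs (1.28), H2-Ob in B cells minus MΦs (4.18) and H2-DMb2 in B cells minus MΦs (4.2) reached p = 0.0312 in the exact permutation test. With droplets of over 100 and up to 300 UMIs as free RNA, an alternative chosen after seeing the data, ECs minus droplets was -2.27 for Cd74 and -1.73 for H2-Aa, both with an exact permutation p = 0.0312. H2-DMb1 was then higher in ECs except in young library 2 and at 20 months. With cells of at least 1000 UMIs, Cd74 in FBs minus empty droplets was -2.45 over 5 libraries (exact permutation p = 0.125). Leaving out 1 library gave -4.13 to -3.36 for Cd74 in airway epithelial cells minus empty droplets, -4.53 to -2.93 for FBs, -1.81 to -1.17 for ECs and 1.58 to 2.92 for ECs minus FBs. With 5 libraries no p under 0.0625 can be reached, so all of these but ECs minus empty droplets lost the threshold by construction. That difference had an exact permutation p = 0.0625 with no library left out. Calls over all genes rose without the gene filter, to 20 in MΦs, 16 in B cells, 7 in ECs, 12 in FBs and 165 in airway epithelial cells (from 0, 0, 0, 3 and 0), and B cells had 24 with filterByExpr and 61 without the 24-month library. FBs had 0 with the stricter cell filter, filterByExpr, thinned cells or the term for the barcode-sharing libraries, and 0 to 2 with 1 library left out, and airway epithelial cells had 1 with thinned cells.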
